A study of Mus musculus with 7 samples.

Results

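Cathepsins and the vacuolar proton pump were examined as 1 group of genes in mouse oocytes from secondary follicles. The group holds the 38 protein-coding rows, of 26019 gene rows in all, whose names are Cts followed by a single letter or begin with Atp6v or Atp6ap: 15 cathepsin genes and 23 genes of the pump and its accessory proteins. Cathepsins are proteases that work mostly inside lysosomes, the acid compartments in which a cell breaks down proteins, membranes and worn-out organelles. The vacuolar proton pump (V-ATPase) makes that acid: its V1 sector, on the cytosolic face, splits ATP, and its V0 sector, in the membrane, carries protons across. Many pump subunits come in paralogues, some used in nearly all cells and others in a few tissues such as kidney, nerve or testis, and most cathepsins are made as inactive precursors that mature in acid.

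Each of 7 libraries was made by Smart-Seq2 (full-length amplification of cDNA from polyadenylated RNA) from 5 pooled oocytes of C57BL/6J mice, with 3 libraries titled KO and 4 titled WT. The KO mice lack mitofusin 2, a GTPase that joins mitochondria to each other and to the endoplasmic reticulum, according to the series title and design text (Mfn2-/-), but the genotype label and the treatment protocol read Mfn1-/-. The design text and protocol give 8-week-old mice while the age label reads P1, and the sources used here do not state how and in which cells the gene was deleted, nor which mouse gave which library. P-values therefore measure only the spread between these libraries, which may in part be technical. The design text gives 3 mice per group, so that, if it covers all libraries, at least 2 of the 4 WT libraries came from the same mouse and the p-values are too small. Libraries held 6676076 to 8343915 reads in genes.

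Mfn2 was at 7.27, 4.55 and 7.66 normalised counts (reads divided by 1 size factor per library) in KO libraries, against 35.3, 35.1, 15.0 and 29.2 in WT libraries. It was called lower (adjusted p = 0.00571 by limma), also with any 1 of the 7 libraries left out. The call was lost with the mean log2 level of granulosa cell markers as a covariate (adjusted p = 0.726 by limma). It was also lost with limma without its trend and robust options (adjusted p = 0.0580). The call was lost too without both KO 2 and KO 3, where a lone KO library remained. There the log2 fold change of Mfn2 was -1.77, against -1.94 in the main fit. Mfn1 was at 335, 347 and 308.5 in KO and 287, 270.5, 340.2 and 258 in WT (adjusted p = 0.499). All libraries carried the oocyte markers: the summed level of 15 such genes was 229132 to 350690 in KO and 200715 to 263487 in WT. Of these 15 genes, limma called 2 higher in KO, where 3.09% of all genes were, and 0 lower.

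Most of the group did not pass the test, and the 4 genes that did are the protease gene Ctsa, the cathepsin gene Ctsl and the pump accessory gene Atp6ap2, which rose in KO oocytes, and the tissue-restricted pump subunit gene Atp6v0a4, which fell. Of the 38 genes, 32 passed a filter on low values (at least 1 normalised count in at least 3 libraries) and were tested with limma on log2(normalised count + 1), with Benjamini-Hochberg adjustment over all 19227 genes tested. For genes with few counts the added 1 makes a fold change look smaller than it is. The 3 genes called higher stand against 3.09% of all genes tested, and the 1 called lower against 3.63%. In either direction 4 of 32 were called, where 6.71% of all genes were. An unadjusted p under 0.05 was found for 10 of the 32 genes, where 21.8% of all genes had one. The median log2 fold change (KO over WT) was -0.02 over the 32 genes and -0.01 over all genes.

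**Figure D1:**
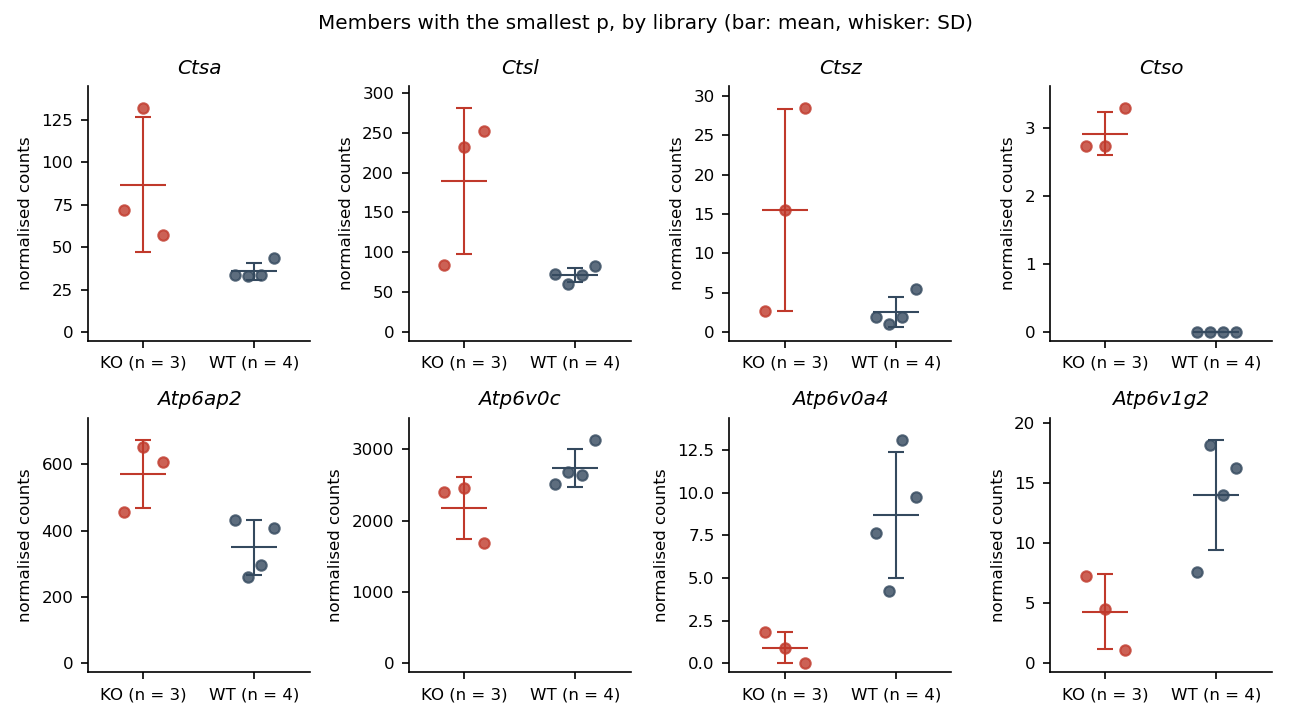
Normalised counts (vertical axis, on a linear scale that starts just below 0) of the 8 genes of the group with the smallest limma p, 1 point per library, KO on the left (n = 3) and WT on the right (n = 4), with the group mean as a bar and the SD as whiskers. Ctsa, Ctsl and Atp6ap2 are higher in every KO library than in any WT library, and Atp6v0a4 is lower; for Ctsl, KO 1 sits just above the WT libraries at 84.5.

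The 3 most abundant cathepsins by group mean, Ctsh, Ctsb and Ctsd, did not pass the test. Per length of transcript (reads per base of the principal transcript, scaled to the same total in every library, as TPM), the highest was Ctsh, a cysteine protease that trims proteins from their amino end, at 203 ± 23.3 in KO (SD, n = 3) and 229.8 ± 19.4 in WT (SD, n = 4). Ctsb, a cysteine protease with both endo- and exopeptidase activity, followed at 73.8 ± 15.0 in KO and 70.5 ± 12.1 in WT. Ctsd, the main aspartic protease of lysosomes, had 26.6 ± 7.28 in KO and 22.1 ± 2.09 in WT. This order, Ctsh over Ctsb over Ctsd, held in both genotypes with gaps wider than the SDs. In KO 3, however, the called gene Ctsl lay above Ctsd (27.5 against 19.4 TPM).

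Ctsh had 1503.5, 1482 and 1364 normalised counts in KO libraries, against 1750.3, 1678, 1377 and 1846 in WT libraries. For Ctsb the values were 1551, 1847 and 1245 in KO and 1819.9, 1337, 1140.3 and 1699 in WT. Ctsd had 229.8, 333 and 191 in KO against 220.2, 186, 189.7 and 245 in WT. The groups overlapped for all 3 genes: the log2 fold change was -0.19 for Ctsh (95% interval -0.46 to 0.08), 0.05 for Ctsb (-0.30 to 0.40) and 0.23 for Ctsd (-0.17 to 0.62). Counts of Ctsb are less certain because its exons share 774 bases with Fdft1, which had 5247 to 7375 normalised counts in KO and 6636 to 8049 in WT, and the library kit does not mark strand. Ctsd shares 31.3% of its 75-base stretches with another annotated gene.

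Ctsl encodes cathepsin L, an endopeptidase of lysosomes (GRCm38 chromosome 13, 64359337 to 64370891, minus strand; ENSMUSG00000021477.9). It had 84.5, 232 and 252 normalised counts in KO libraries, against 72.5, 60.7, 71.0 and 82.3 in WT libraries. KO 2 and KO 3 stood well above all others, while KO 1 lay just above the highest WT library. The mean was 2.64-fold higher in KO (189 ± 91.3, n = 3, against 71.6 ± 8.84, n = 4, SD), a fitted log2 change of 1.25 (SE 0.31; adjusted p = 0.0312 by limma). Without KO 2 and KO 3 together the log2 fold change was 0.24 (adjusted p = 0.831 by limma). Leaving out any 1 library other than KO 1 also took the call away, with adjusted p of 0.0530 to 0.113, and leaving out KO 1 gave 1.75 (adjusted p = 6.82e-05). In other annotated genes, 24.6% of the 75-base stretches of Ctsl recur, so its count is less certain than that of a gene with none.

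Ctsa encodes cathepsin A, a serine carboxypeptidase that also protects the lysosomal enzymes beta-galactosidase and neuraminidase 1 (chromosome 2, 164832873 to 164841033, plus strand; ENSMUSG00000017760.16). Its values were 71.8, 132 and 56.9 normalised counts in KO libraries and 33.4, 33.0, 33.6 and 43.3 in WT libraries. Every KO library, KO 1 included, lay above every WT library, as was the case for 9.37% of all genes tested. Ctsa averaged 86.8 ± 39.7 in KO (SD, n = 3) and 35.8 ± 5.00 in WT (SD, n = 4), 2.42-fold higher in KO, a fitted log2 change of 1.17 (SE 0.28; adjusted p = 0.0164 by limma). The call was lost without KO 2 (log2 fold change 0.83, adjusted p = 0.128) and without both KO 2 and KO 3 (0.99, adjusted p = 0.321), and was kept in the other 6 fits that left out 1 library. Exons of Ctsa overlap those of Neurl2 and Pltp, which had at most 5.45 normalised counts in KO and 5.61 in WT.

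Ctsz, the carboxypeptidase cathepsin Z, and Ctso, cathepsin O, had the next smallest p among the cathepsins without passing the test. Ctsz had 2.73, 15.5 and 28.4 normalised counts in KO, against 1.91, 1.07, 1.87 and 5.42 in WT (log2 fold change 1.91, SE 0.65; adjusted p = 0.0814 by limma). It was high in KO 2 and KO 3, while KO 1 was inside the WT range. Ctso had 3 reads in each KO library and 0 in each WT library (adjusted p = 0.0510 by limma), values at or under the limit of 3 counts that a count of 0 allows, so no fold is given. The groups did not overlap, but 3 reads per library leave the level poorly determined.

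The remaining cathepsins were at or near 0. Ctsf and Ctsm were tested and did not pass, with at most 8.75 normalised counts in any KO library and 8.41 in any WT library. Ctsc, Ctse, Ctsj, Ctsk, Ctss and Ctsw failed the filter, with at most 3 reads in any library. Among them are the protease of osteoclasts (Ctsk), that of antigen-presenting cells (Ctss), that of cytotoxic lymphocytes (Ctsw) and the activator of granule proteases (Ctsc). Of the relatives of cathepsin L that are known from mouse placenta, Ctsj and Ctsm are in the group. Cts3, which the naming rule leaves out, fell to 9.08, 1.82 and 0 normalised counts in KO, against 9.53, 14.9, 18.7 and 18.4 in WT (log2 fold change -2.38, SE 0.62; adjusted p = 0.0276 by limma). Its call was lost without KO 2, KO 3, WT 2, WT 3 or WT 4 (adjusted p up to 0.101). Cts3 was not called by DESeq2 (adjusted p = 0.0557) or edgeR (0.0805) on the recovered reads, and its log2 fold change was -0.75 with the granulosa marker covariate and -0.66 without both KO 2 and KO 3. Ctsj, Ctsm and Ctsl all lie on chromosome 13, and Ctsk and Ctss lie side by side on chromosome 3.

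**Figure D2:**
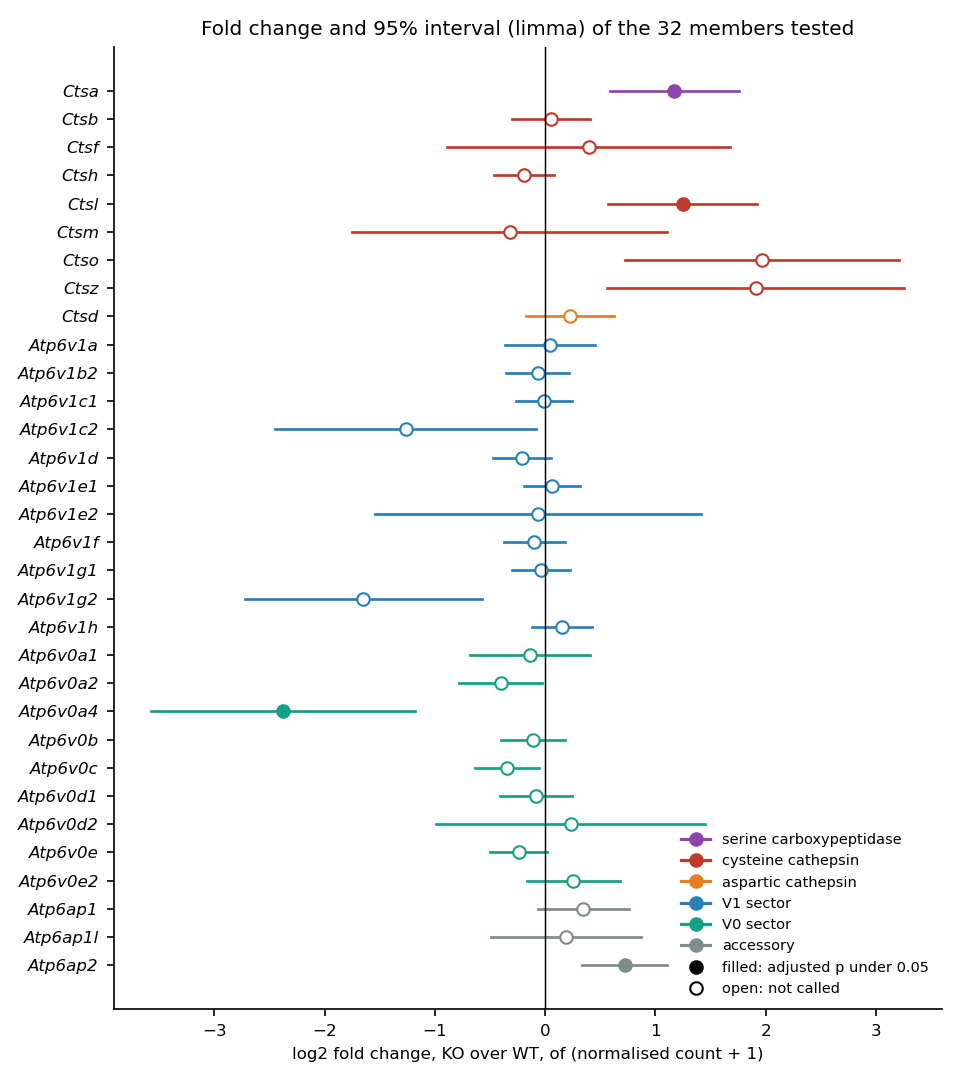
Log2 fold change of (normalised count + 1), KO over WT, on the horizontal axis for the 32 genes of the group that were tested, from top to bottom the cathepsins by protease class, the V1 sector, the V0 sector and the accessory proteins; lines are 95% intervals from limma and filled points are genes with adjusted p under 0.05. Filled points are Ctsa (1.17), Ctsl (1.25), Atp6v0a4 (-2.38) and Atp6ap2 (0.72), and the wide intervals belong to genes with few reads.

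The genes of the V1 sector gave 0 calls of 11 tested, with limma and also with edgeR on the recovered reads. Limma called 6.71% of all genes, so 0 of 11 does not set the sector apart. Of the 11, 2 had an unadjusted p under 0.05, where 21.8% of all genes had one. Per length, the most abundant was Atp6v1g1, of the stalk subunit G, at 643 ± 58.8 TPM in KO and 656 ± 53.9 in WT. Atp6v1e1, of stalk subunit E, had 591 ± 58.2 in KO and 561 ± 32.2 in WT, and Atp6v1f, of rotor subunit F, had 454 ± 40.7 in KO and 482 ± 16.8 in WT. The least abundant of the V1 genes with no paralogue in the group was Atp6v1a, of the catalytic subunit A, with 9.42 ± 3.15 in KO and 8.80 ± 0.927 in WT. The level of Atp6v1a was thus far below those of the stalk genes, although an assembled V1 sector holds equal numbers of A, E and G subunits. Levels per length depend on the transcript model used for each gene.

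For most of the well-detected V1 genes the KO and WT libraries overlapped. Atp6v1g1 had 3012, 3649 and 3059.8 normalised counts in KO libraries, against 3578, 3048, 2925 and 3774 in WT libraries (log2 fold change -0.04, 95% interval -0.30 to 0.23). Of its 75-base stretches, 12.5% recur in other annotated genes, so its count is less certain. Atp6v1e1 had 3123, 3241 and 3969 normalised counts in KO libraries, against 3390.1, 3488, 3017 and 3229 in WT libraries (0.06, interval -0.19 to 0.32). Neither gene differed by more than the spread between libraries. Atp6v1c1, of the subunit C that clamps the sectors together, had 1864, 2035 and 1680.3 in KO and 1947, 1927, 1784 and 1815 in WT (-0.01, interval -0.26 to 0.24). Atp6v1b2, of the nucleotide-binding subunit B, had a log2 fold change of -0.07, Atp6v1a 0.04, Atp6v1f -0.10 and Atp6v1h, of the regulatory subunit H, 0.15. Atp6v1d, of rotor subunit D, had all KO libraries (1170.1 to 1308) below all WT libraries (1329 to 1652), with a log2 fold change of -0.21 that did not pass (adjusted p = 0.356 by limma).

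In the V0 sector 1 of 9 genes was called, where 6.71% of all genes were: Atp6v0a4. It encodes the a4 form of subunit a, known from the acid-secreting cells of the kidney and the inner ear (chromosome 6, 38048483 to 38124587, minus strand; ENSMUSG00000038600.12). Its normalised counts were 1.82, 0.909 and 0 in KO libraries, against 7.63, 4.26, 13.1 and 9.75 in WT libraries, from 2, 1 and 0 reads in KO and 8, 4, 14 and 9 in WT. Every KO library lay below every WT library, as for 9.83% of all genes tested. The log2 fold change was -2.38 (SE 0.58; adjusted p = 0.0168 by limma), and it was -1.18 with a pseudocount of 5 and -3.20 with DESeq2 on the recovered reads. The call was lost without KO 3 or WT 3 (adjusted p of 0.0666 and 0.0664) and without both KO 2 and KO 3 (log2 fold change -1.69, adjusted p = 0.416). Exons of Atp6v0a4 share 259 bases with those of D630045J12Rik, which was at 103 to 169 normalised counts in KO and 92.5 to 125 in WT.

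Atp6v0c, of the proton-carrying subunit c, was the most abundant V0 gene, with 418 ± 99.6 TPM in KO (SD, n = 3) and 519 ± 44.2 in WT (SD, n = 4). In normalised counts it had 2398, 2462 and 1681 in KO libraries and 2515, 2674, 2639.5 and 3130.3 in WT libraries. The groups did not overlap, but the log2 fold change of -0.35 (SE 0.14) did not pass (adjusted p = 0.148 by limma), and 9.24% of its 75-base stretches recur in pseudogenes. Atp6v0a2, of the a2 form, had 253, 170.0 and 190.3 in KO against 228, 312, 293 and 243 in WT (-0.40, SE 0.18; adjusted p = 0.197). With the mean log2 level of the granulosa cell markers as a covariate its log2 fold change was 0.072. Atp6v0b, Atp6v0d1, Atp6v0e, Atp6v0a1, Atp6v0d2 and Atp6v0e2 did not pass either, with log2 fold changes of -0.11, -0.08, -0.24, -0.14, 0.23 and 0.25. The summed normalised counts of the 9 V0 genes were 5611, 5497 and 4927 in KO libraries, against 6141, 6204, 6345.5 and 6744 in WT libraries, a sum set mostly by Atp6v0c and Atp6v0e. Those of the 11 V1 genes were 13387, 14755 and 14709 in KO and 14793, 14306, 13223 and 15216 in WT. The V0 sums did not overlap between the genotypes and the V1 sums did; the difference between the sectors was not tested.

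**Figure D3:**
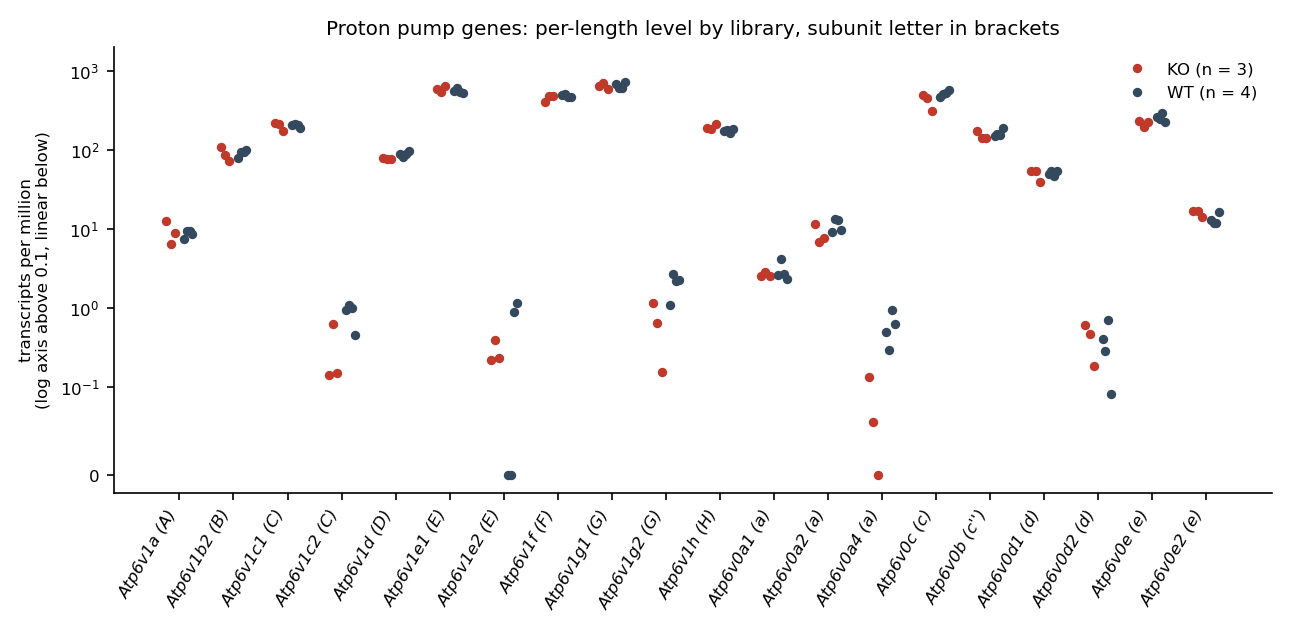
Per-length level (TPM; logarithmic axis above 0.1, linear below) of the 20 V-ATPase subunit genes, 1 point per library, KO left of WT for each gene, with the subunit letter in brackets. For subunits C, E, G and d a single paralogue carries nearly all of the level in both genotypes, and the paralogues below about 3 TPM include Atp6v0a4, Atp6v1g2 and Atp6v1c2.

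Each pump subunit with paralogues in the group was carried mainly by the widely used form. Atp6v1c1 made up at least 99.5% of the per-length level of subunit C in every library, Atp6v1e1 at least 99.8% of subunit E, Atp6v1g1 at least 99.6% of subunit G and Atp6v0d1 at least 98.5% of subunit d. For subunit e, Atp6v0e held at least 92.0% in every library. Subunit a was mixed: among Atp6v0a1, Atp6v0a2, Atp6v0a4 and Tcirg1 (the a3 form, named outside the rule), Atp6v0a2 held 74.0% ± 4.93 in KO (SD, n = 3) and 75.3% ± 1.88 in WT (SD, n = 4), and Atp6v0a1 held 23.4% ± 5.72 in KO and 19.7% ± 3.20 in WT. The a4 form held 0.510% ± 0.469 of the subunit a level in KO and 4.05% ± 1.74 in WT.

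Among the low paralogues, Atp6v1g2 and Atp6v1c2 had the next smallest p after Atp6v0a4. Atp6v1g2, the neuronal form of subunit G, had 7.27, 4.55 and 1.09 normalised counts in KO against 7.63, 18.1, 14.0 and 16.2 in WT. Its log2 fold change was -1.65 (SE 0.52, adjusted p = 0.0588 by limma). The groups did not overlap, with every KO library lower as for 9.83% of all genes tested, but KO 1 and WT 1 each had 8 reads. Limma called Atp6v1g2 without KO 1 (adjusted p = 0.0231) and with no filter beyond a value above 0 in at least 1 library (0.0297). Exons of Atp6v1g2 overlap those of Nfkbil1, which had 2.73 to 7.27 in KO and 1.91 to 9.35 in WT. Atp6v1c2, a form of subunit C found in kidney, lung and placenta, had 0.908, 4.55 and 1.09 in KO against 6.67, 7.46, 6.54 and 3.25 in WT (-1.27, SE 0.57; adjusted p = 0.196). Atp6v1e2, the testis form of subunit E, and Atp6v0d2, the osteoclast form of subunit d, had at most 6.36 normalised counts in any KO library and 7.48 in any WT library, with log2 fold changes of -0.07 (SE 0.71) and 0.23 (SE 0.59). Grouping these low paralogues was a choice made after their values were seen.

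For the better-measured pump genes the intervals were narrow. With a cutoff chosen after the values were seen, 16 pump genes averaged at least 100 normalised counts. The 95% interval of the log2 fold change stayed within 1 unit in either direction for 15 of them, Atp6ap2 being the exception, and within a 1.5-fold change for 11. Over all 19227 genes tested, without that cutoff, 9333 and 4399 stayed within these limits. Genes with few reads have wide intervals, so the cutoff itself favours narrow ones.

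Of the accessory proteins, Atp6ap2 was called higher. It encodes the prorenin receptor, a membrane protein that associates with the V0 sector and is needed for pump assembly (chromosome X, 12587801 to 12617050, plus strand; ENSMUSG00000031007.2). Its values were 455, 651 and 607 normalised counts in KO libraries and 434, 261, 297 and 407 in WT libraries. Every KO library lay above every WT library, with KO 1 the closest to them. The mean was 571 ± 103 in KO (SD, n = 3) and 349.8 ± 83.7 in WT (SD, n = 4), 1.63-fold higher in KO, a fitted log2 change of 0.72 (SE 0.19; adjusted p = 0.0252 by limma). Its call was lost without KO 2, KO 3, WT 2 or WT 3 (adjusted p of 0.0791 to 0.103), and without both KO 2 and KO 3 the log2 fold change was 0.41 (adjusted p = 0.593). Atp6ap1, of the partner protein Ac45 and likewise on chromosome X, had 263, 345 and 188 in KO against 199, 209, 165 and 245 in WT and did not pass (0.34, SE 0.20; adjusted p = 0.329). Atp6ap1l, its relative, had 17.3 to 30.0 in KO and 19.1 to 24.5 in WT (adjusted p = 0.795).

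Markers of granulosa cells, which surround the oocyte, moved with part of these results. Of 16 granulosa cell markers, 9 were higher in both KO 2 and KO 3 than in each of the other 5 libraries, as were 12.4% of all genes tested and 6 of 15 oocyte markers. Of the 16 granulosa cell markers, 8 had at most 20 normalised counts in every library. None of the 14 markers tested was called higher by limma, and 9 had an unadjusted p under 0.05. The only markers called were lower in KO: Cyp19a1, of aromatase, at 78.2 ± 25.1 in KO (SD, n = 3) and 179 ± 28.4 in WT (SD, n = 4) with no overlap (adjusted p = 0.00251 by limma), and Esr2, of estrogen receptor beta, at 718, 596 and 853 in KO against 992, 874, 1066 and 1119 in WT (adjusted p = 0.0446). In the group the pattern of KO 2 and KO 3 above all others held for 6 of 32 genes: Ctsl, Ctsz, Ctsf, Ctso, Atp6ap2 and Atp6ap1l. Inha, of the inhibin alpha subunit, had 54.5, 395 and 338 normalised counts in KO libraries, against 66.7, 18.1, 23.4 and 11.9 in WT. The defining markers Amh and Foxl2 reached only 8.18 and 3.64 in KO and 0.953 and 1.08 in WT, and the summed level of the 16 markers was 1393 to 1778 in KO and 1491 to 1799 in WT, most of it from Esr2, Cdh2 and Nr5a2. With the mean log2 level of the marker list as a covariate, 2 genes of the whole table were called. The log2 fold change was then 0.25 for Ctsl, 0.18 for Atp6ap2, 0.90 for Ctsa and -2.28 for Atp6v0a4, with limma adjusted p of 0.698 to 0.941. Centred, that mean was -0.02, 0.92 and 0.69 in KO libraries, against -0.03, -0.81, -0.23 and -0.53 in WT. It is thus partly confounded with genotype, and a call lost in this fit cannot be assigned to the markers. Mfn2 also lost its call there (log2 fold change -1.52, adjusted p = 0.726 by limma). The part of granulosa cell RNA in the group's results was not tested. In pooled oocytes, more cells of another type and more RNA per cell cannot be told apart.

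**Figure D4:**
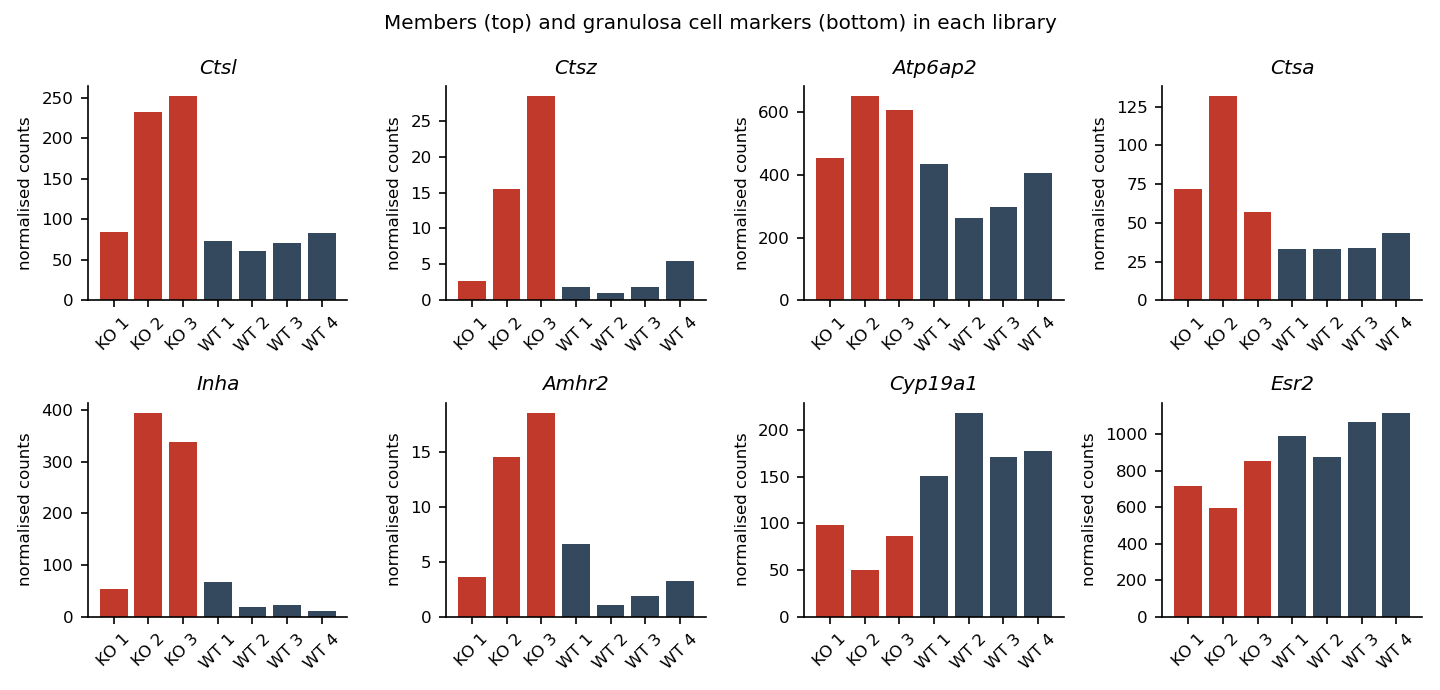
Normalised counts in each library (KO 1 to 3 in red, WT 1 to 4 in dark blue; vertical axes from 0) of Ctsl, Ctsz, Atp6ap2 and Ctsa above, and of 4 granulosa cell markers below: Inha and Amhr2, 2 of the 9 that were highest in KO 2 and KO 3 and chosen after their values were seen, and Cyp19a1 and Esr2, the 2 markers that were called, both lower in KO. KO 2 and KO 3 have the tallest bars for Ctsl, Ctsz, Atp6ap2, Inha and Amhr2, while KO 1 is close to the WT libraries for Ctsl (84.5), Ctsz (2.73) and Inha (54.5).

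Of 9 macrophage, 6 theca and stroma and 4 endothelial markers, 0 were highest in both KO 2 and KO 3, where 12.4% of all genes tested were. At most 20 normalised counts in every library were found for 7 of the macrophage, all 6 theca and stroma and 2 of the endothelial markers. With so few and such low markers, the 0 says little about these cells. The macrophage sum, 187 to 275 in KO and 544 to 582 in WT, came almost wholly from C1qb, which was called lower (adjusted p = 0.000124 by limma), while Adgre1, Lyz2 and C1qa were at 0 in all KO libraries. The endothelial markers summed to 166 to 236 in KO and 196 to 231 in WT, and those of theca and stroma to 12.7 to 23.6 in KO and 15.0 to 29.8 in WT.

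Around the genes' start sites, sequences were searched for the letters CACGTG, the E-box, and TCACGTGA, an E-box with the flanking bases that TFEB, the transcription factor known as a regulator of lysosomal genes, prefers; both read the same on either strand, and every TCACGTGA holds a CACGTG. RefSeq windows (GRCm38.p6) from 250 bases before to 50 after each start covered 27 of the 38 genes in 31 windows. TCACGTGA occurred in 5 of these 27 genes, Ctsa, Ctsd, Atp6v1a, Atp6v0d1 and Atp6v0e, and in 1.12% of the 27025 genes with a window. CACGTG occurred in 8 of the 27, adding Ctsl, Ctsf and Atp6v0b, and in 8.09% of all genes. Of the 5 genes with TCACGTGA 1 was called, Ctsa, and of the 8 with CACGTG 2 were, Ctsa and Ctsl. In the whole group 4 of 32 tested genes were called, and 6.71% of all genes tested were. Counts this small cannot be told apart from those shares. The windows of Atp6ap2 and Atp6v0a4 held neither motif. A match of letters is a description and not a site in use. The stretches that follow run 5′ to 3′ toward the start, with the motif in capitals, and show the called Ctsa and Ctsl beside Ctsd and Atp6v1a, which carry the same letters and were not called.
Ctsa, chr2:164833734-164833772, plus strand: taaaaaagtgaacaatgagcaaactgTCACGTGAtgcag
Ctsl, chr13:64370725-64370770, minus strand: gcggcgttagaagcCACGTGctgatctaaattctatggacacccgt
Ctsd, chr7:142387893-142387952, minus strand: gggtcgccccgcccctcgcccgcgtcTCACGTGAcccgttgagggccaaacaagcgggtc
Atp6v1a, chr16:44139358-44139417, minus strand: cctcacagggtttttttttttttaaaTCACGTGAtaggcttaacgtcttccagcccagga
The motif of Ctsa begins 13 bases before the downstream of its annotated starts. In Ctsd it begins 99 bases before the RefSeq start of its window, in Atp6v1a 132 and in Ctsl 236. These starts lie inside the genes as annotated in the deposited data. Each printed stretch, that of Ctsa included, thus lies within the annotated span of its gene and not ahead of it.

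RNA of TFEB itself was hardly present: Tfeb had 0 to 3.64 normalised counts in KO and 0 to 1.08 in WT, and protein was not measured. Its relative Tfe3, which binds the same letters, had 252, 161 and 160 in KO and 155, 257, 328 and 164 in WT (adjusted p = 0.697 by limma), and Mitf had 23.6 to 30.0 in KO and 17.0 to 28.6 in WT (adjusted p = 0.692). All 3 genes were tested and none passed.

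Lysosomal genes outside the naming rule were set beside the group. Of 57 tested genes for lysosomal hydrolases, membrane proteins and sorting, 4 were called higher and 1 lower, 8.77% against 6.71% of all genes. Asah1, of acid ceramidase, had 95.4, 139 and 110.5 normalised counts in KO, against 37.2, 40.5, 24.3 and 23.8 in WT (log2 fold change 1.86, SE 0.26; adjusted p = 0.000482 by limma). Lamp2, of a lysosomal membrane glycoprotein, had 155, 181 and 166 in KO against 95.3, 98.0, 71.0 and 74.7 in WT (0.99, SE 0.20; adjusted p = 0.00513). For both genes every KO library, KO 1 included, lay well above every WT library, and both calls were kept whichever single library was left out, but not without both KO 2 and KO 3 (adjusted p = 0.0656 for Asah1 and 0.205 for Lamp2 by limma) or with the granulosa marker covariate (0.317 and 0.603). Ostm1, of the partner subunit of a lysosomal chloride/proton exchanger, had 115, 177 and 142 in KO against 73.4, 59.6, 73.8 and 78.0 in WT (1.00, SE 0.21; adjusted p = 0.00731), and lost its call without KO 2 (adjusted p = 0.0514). Gm2a, of the GM2 activator, had 3.63, 8.18 and 5.47 in KO against 1.91, 0, 0.935 and 0 in WT (adjusted p = 0.0443 by limma). It lost its call without KO 2, KO 3, WT 2, WT 3 or WT 4 (adjusted p up to 0.178). Neither edgeR on the recovered reads (adjusted p = 0.0805) nor limma with the granulosa marker covariate (0.925) called Gm2a. Gm2a also lost its call without both KO 2 and KO 3, where its log2 fold change was 1.59, against 2.08 in the main fit. Scpep1, a serine carboxypeptidase of the same family as cathepsin A, fell to 496, 362 and 422 in KO, against 750.3, 634, 679 and 760.4 in WT (-0.73, SE 0.15; adjusted p = 0.00486). That call was kept in all fits that left out 1 library, but not without both KO 2 and KO 3 (adjusted p = 0.268 by limma) or with the granulosa marker covariate (0.720). Ctsa and Scpep1 moved in opposite directions. Of the mannose-6-phosphate receptors that carry cathepsins to lysosomes, M6pr (adjusted p = 0.405) and Igf2r (adjusted p = 0.970) did not pass.

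Among 16 partners of the pump 2 were called higher and 0 lower by limma, where 3.09% and 3.63% of all genes were; 5 of the 16 had an unadjusted p under 0.05. Vma21, an assembly factor of the V0 sector in the endoplasmic reticulum, had 580.5, 631 and 776 normalised counts in KO, against 394, 357, 341 and 468 in WT (log2 fold change 0.76, SE 0.16; adjusted p = 0.00551 by limma). Ncoa7, whose protein binds the V1 sector, had 88.1, 122 and 128 in KO against 50.5, 52.2, 47.7 and 47.7 in WT (1.15, SE 0.22; adjusted p = 0.00365). KO 1 lay above all WT libraries for both genes, and both calls held with any 1 of the 7 libraries left out. Without both KO 2 and KO 3 they did not hold (adjusted p = 0.242 for Vma21 and 0.367 for Ncoa7 by limma), nor with the granulosa marker covariate (0.684 and 0.713) or with limma without its trend and robust options (0.107 and 0.0515). Ccdc115 and Tmem199, assembly factors that work with Vma21, had log2 fold changes of -0.14 and 0.00. The 5 Lamtor genes, of the complex that links the pump to mTORC1, did not pass.

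Of 6 tested inhibitors of cathepsins and related proteases, Serpinb6a, an intracellular serine protease inhibitor, was called higher, at 229.8, 402 and 369 in KO against 206, 218, 192 and 185 in WT (log2 fold change 0.69, SE 0.19; adjusted p = 0.0294 by limma). The call was lost without KO 2, KO 3, WT 1, WT 3 or WT 4 (adjusted p up to 0.143). Without both KO 2 and KO 3 the log2 fold change of Serpinb6a was 0.20. With the granulosa marker covariate it was 0.26 (adjusted p = 0.919 by limma). Cystatin C (Cst3), the main secreted inhibitor of cysteine cathepsins, had 1212, 1823 and 1475 in KO against 1430.0, 1156, 1218 and 1353 in WT and did not pass (adjusted p = 0.436), nor did cystatin B (Cstb; 0.52, adjusted p = 0.153).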

How the data were processed

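Per the labels' protocols, cDNA of 5 oocytes per library was amplified by Smart-Seq2, and libraries made with a kit that marks no strand were sequenced in 75-base pairs. Cutadapt and FastQC, the aligner STAR, DESeq and DESeq2 are named per the submitters' processing notes, as is the build GRCm38 (mm10); no source used here names the counter. The deposited signal values are normalised counts, in which the authors scaled the reads of each library by a single size factor: after division by the library's step, 100% of values of up to 1000 reads lay within 0.05 of a whole number, which gave the recovered reads. Genes were matched to GENCODE release M21 (all 38 of the group). Length is the mean over the best-supported principal transcripts.

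The main test was limma 3.58.1 (R 4.3.3; trend and robust options) on log2(value + 1) over 19227 genes, called at adjusted p under 0.05. It was tested on simulated counts. edgeR 4.0.16 called 1255 genes on the recovered reads and DESeq2 1.42.0 called 1474; these, other pseudocounts, filters, scalings and left-out libraries are alternatives. Fits without a library kept the same 19227 genes. The group and its lists were chosen with earlier results of these data known. Values per library are given for Mfn2 and Mfn1, for called genes of the group, for its genes with an unadjusted p under 0.05 and for the highest per-length gene of each role. They are also given for the called lysosomal genes, pump partners, protease inhibitors and cathepsin relatives outside the rule, but not for every called cell type marker.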

Additional observations from a re-analysis of the deposited data

Results flagged for a closer look

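In the 4 WT libraries, 5 of the 32 genes tested had a highest or lowest library far from the rest, with a gap to its nearest neighbour that, over the whole range, passed Dixon's 95% critical value; chance alone flags about 1 in 20 groups, and the 3 KO libraries are too few for this check. Atp6v0b had 873 normalised counts in WT 4, against 661 to 694 in the other WT libraries. Ctsa had 43.3 in WT 4, against 33.0 to 33.6, and all KO values of Ctsa remained above it. Atp6v0a1 had 74.6 in WT 2, against 43.3 to 48.6. Atp6v1a had 140.1 in WT 1, against 164 to 168. Ctsm had 8.41 in WT 3, against 1.08 to 2.13.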

How the results depend on the processing

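The group's 3 higher and 1 lower calls, the 1291 calls over all genes and the 5 over other lysosomal genes depended on single libraries. Leaving out 1 library at a time gave 0 to 4 higher, 0 to 2 lower, 604 to 1772 over all genes and 3 to 9 of the lysosomal genes. Without both KO 2 and KO 3, where the lone KO library is assumed to vary like WT, the counts were 0 higher, 0 lower, 130 over all genes and 0 lysosomal. With the mean of the granulosa markers, partly confounded with genotype, added to the fit they were 0, 0, 2 and 0. The log2 fold change of Atp6v0a2 then turned to 0.072. Limma without trend and robust gave 1 higher (Ctso), 0 lower, 106 over all genes and 1 lysosomal. Without a filter there were 5 higher and 2 lower calls, and with a mean of at least 10 there were 0 lower, since Atp6v0a4 is then not tested. The causes were not tested. edgeR and DESeq2 on the recovered reads each called 4 members higher (Ctsz added) and 1 lower. With replicate numbers as a replicate block the counts were 4 higher, 1 lower and 1022 over all genes. Deviations from the group means correlated at -0.12, 0.03 and 0.02 in same-numbered libraries, and at -0.12 to 0.09 in other pairs. With so few libraries this does not settle whether equal numbers mark a pair. Genes with few reads, such as Ctso and Atp6v0a4, are limited by depth.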
